A study of Homo sapiens with 20 samples.

Results

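RASA3, ATP9A, B4GALT5, ERGIC1, NUP50 and C13orf42 are 6 of the 20037 protein-coding genes of the RefSeq annotation on hg38. They were chosen by their ATAC-seq peak counts: METTL3-knockdown colon cancer cells given olaparib had shown more peaks around them than control-hairpin cells given the same drug. That difference is therefore a property of the choice and is described here without a test. At each locus every deposited peak interval that overlapped the gene body or the 50 kb on either side was recorded in each of 10 peak lists. Positions are given relative to gene ends and RefSeq starts, without exons or introns. The 6 windows held 53 of 51462 intervals in LOVO and 49 of 35455 in RKO in the lists of knockdown cells with olaparib.

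The series covers 20 ATAC-seq samples of LOVO and RKO, established human colon adenocarcinoma lines. In each line there were 2 samples with the METTL3 hairpin and olaparib (shMETTL3 with olaparib), 2 with the control hairpin and olaparib (shControl with olaparib), 2 with the METTL3 hairpin alone (untreated shMETTL3) and 4 with the control hairpin alone (untreated shControl, 2 of them labelled batch 2). Every group thus carries a hairpin. The labels give neither the hairpin sequences nor whether a line is a clone, nor the dose and duration of olaparib. The files hold 5 peak lists a line, each for a group and none for a single sample, so that no replicate spread and no test between groups could be had. Untreated shControl has 2 lists in each line, a scored list of the same form as the olaparib lists and a merged list of the same form as the untreated shMETTL3 list. Groups were compared within a form unless stated. Whether a gained interval was present in untreated cells was judged from lists of both forms. Which of the 2 control lists holds the samples labelled batch 2 is not given, so a comparison with untreated shControl may cross batches. The difference between the 2 control lists stands beside the results, though form and batch may both enter it.

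ATAC-seq marks DNA that a transposase can reach, and a peak is a stretch where its insertions pile up. METTL3 is the catalytic subunit of the enzyme complex that methylates adenosines in RNA, and olaparib blocks poly(ADP-ribose) polymerases, which act early in the repair of DNA breaks. The 6 genes act in different pathways. RASA3 encodes a GTPase-activating protein that switches RAS-family proteins off, ATP9A a P4-type ATPase of endosomes, and B4GALT5 a galactosyltransferase that makes lactosylceramide, the precursor of most glycosphingolipids. ERGIC1 encodes a membrane protein that cycles between the endoplasmic reticulum and the Golgi, and NUP50 a nucleoporin of the nuclear basket that takes part in protein import. No role is given here for C13orf42.

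The lists differed in size, which bears on every count below. In LOVO they held 51462 intervals (shMETTL3 with olaparib), 32192 (shControl with olaparib), 16417 (untreated shMETTL3), 33474 (untreated shControl, merged) and 41431 (untreated shControl, scored). In RKO the same lists held 35455, 25855, 6916, 27978 and 21210 intervals. Sequencing depth is unknown, a missing interval does not show closed chromatin, and fewer open cells cannot be told apart from less open chromatin per cell. Epithelial marker genes had an open end for 2 to 5 of 5 genes in the LOVO lists and for 1 to 3 of 5 in the RKO lists, with CDH1 and VIL1 in no RKO list. Of 4 mesenchymal markers 1 to 2 were open in LOVO (VIM and ZEB1) and 1 in RKO (ZEB1), and of 3 leukocyte markers 0 to 2 in LOVO (SPI1 and CD3E) and 0 to 1 in RKO (SPI1), with PTPRC open in no list. The end of METTL3 itself was open in all 10 lists, which does not check the knockdown, since a hairpin acts on the transcript.

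Of the 6 genes 5 had a promoter in the RefSeq table (GRCh38.p14), each running from 250 bases before to 50 bases after a transcription start. Shown here are the 4 promoters that intervals of the lists overlapped. They are NUP50 at its upstream start (chr22:45163675-45163974, plus strand), NUP50 at a start inside the gene (chr22:45164421-45164720, plus strand), RASA3 (chr13:114132574-114132873, minus strand) and B4GALT5 (chr20:49713829-49714128, minus strand). Each is written 5′ to 3′ on the strand of the gene. Capitals mark matches on either strand to the motifs searched.
NUP50 upstream start: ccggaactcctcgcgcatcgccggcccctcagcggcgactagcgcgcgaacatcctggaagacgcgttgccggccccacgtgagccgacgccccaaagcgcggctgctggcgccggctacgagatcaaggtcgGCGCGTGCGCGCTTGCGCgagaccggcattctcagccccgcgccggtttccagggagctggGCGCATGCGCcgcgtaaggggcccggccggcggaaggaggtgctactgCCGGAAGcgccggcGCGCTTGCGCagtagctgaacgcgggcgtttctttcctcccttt
NUP50 inner start: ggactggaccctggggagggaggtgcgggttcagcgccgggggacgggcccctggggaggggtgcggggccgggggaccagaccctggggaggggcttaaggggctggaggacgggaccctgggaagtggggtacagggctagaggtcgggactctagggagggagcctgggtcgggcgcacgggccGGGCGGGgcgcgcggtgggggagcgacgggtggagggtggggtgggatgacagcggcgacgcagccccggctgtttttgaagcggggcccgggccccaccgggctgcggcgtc
RASA3: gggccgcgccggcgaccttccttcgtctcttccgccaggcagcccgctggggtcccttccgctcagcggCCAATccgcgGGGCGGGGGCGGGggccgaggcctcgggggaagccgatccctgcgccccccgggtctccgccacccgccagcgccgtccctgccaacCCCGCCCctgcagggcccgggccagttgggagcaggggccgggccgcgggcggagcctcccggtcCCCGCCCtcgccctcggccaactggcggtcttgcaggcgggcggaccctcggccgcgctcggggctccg
B4GALT5: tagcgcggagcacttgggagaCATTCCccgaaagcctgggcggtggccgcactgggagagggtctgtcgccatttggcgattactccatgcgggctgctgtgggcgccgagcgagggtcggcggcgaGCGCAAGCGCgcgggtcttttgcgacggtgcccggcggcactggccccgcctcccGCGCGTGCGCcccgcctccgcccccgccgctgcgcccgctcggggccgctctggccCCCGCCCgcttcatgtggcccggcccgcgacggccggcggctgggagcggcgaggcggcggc
The motifs found were the NRF1 motif, the ETS motif CCGGAAG, the SP/KLF motif GGGCGGG, the NFY motif CCAAT and the TEAD motif GGAATG. The upstream NUP50 promoter held 4 NRF1 matches, of which the pair farthest upstream overlap, and 1 ETS match. Matches to NRF1 occurred in 5.78% of 35116 RefSeq promoters and to ETS in 10.3%. RASA3 held 1 NFY match and 4 SP/KLF matches, of which 2 overlap, against 34.6% and 33.1% of all promoters with at least 1. B4GALT5 held 2 NRF1 matches, 1 TEAD match (14% of promoters) and 1 SP/KLF match, and the inner NUP50 promoter 1 SP/KLF match. Also searched, with no match in these 4 promoters, were the AP-1 motif TGANTCA, found in 7.71% of all promoters, the cyclic AMP response motif TGACGTCA in 1.85%, the HNF4 motif CAAAGTCCA in 0.384% and the FOXA motif TGTTTAC in 3.42%. The GATA motif AGATAA was found in 10.3%, the RUNX motif TGTGGT in 13.1%, the TCF/LEF motif ATCAAAG in 2.62% and the CTCF core in 0.0626% of all promoters. A match describes the letters only, and a missing match says only that these letters are not in the window. No interval of any list overlapped the promoters of ATP9A and C13orf42 or the inner RASA3 promoter.

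Under olaparib, shMETTL3 cells had more intervals than shControl cells at all 6 loci in both lines. An interval of shMETTL3 with olaparib is called gained when no interval of shControl with olaparib overlapped it by at least 1 bp, and an interval of shControl with olaparib is called lost in the opposite case. In LOVO 32 of 53 intervals were gained (60.4%, 46 to 73.5%, exact 95% Clopper-Pearson interval, counting error only), against 40.5% over the whole list, and in RKO 28 of 49 (57.1%, 42.2 to 71.2%), against 33.1%. Of the shControl with olaparib intervals 1 of 22 was lost in LOVO, at 1 of 6 loci (C13orf42), and 0 of 21 in RKO, at 0 of the 4 loci that had any; 19.5% and 30.1% of genes lost at least 1. At least 1 gained interval stood at 6 of 6 loci in each line. That call was met by 72.6% of protein-coding genes in LOVO, by 62.3% in RKO and by 50.6% in both. At least 4 gained intervals also stood at 6 of 6 loci in each line, a call met by 13.4% of genes in LOVO, 5.06% in RKO and 1.89% in both. With each peak name counted once, NUP50 had 3 in RKO and did not meet the call there. Since this contrast chose the loci, nothing is read from these shares.

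**Figure D1:**
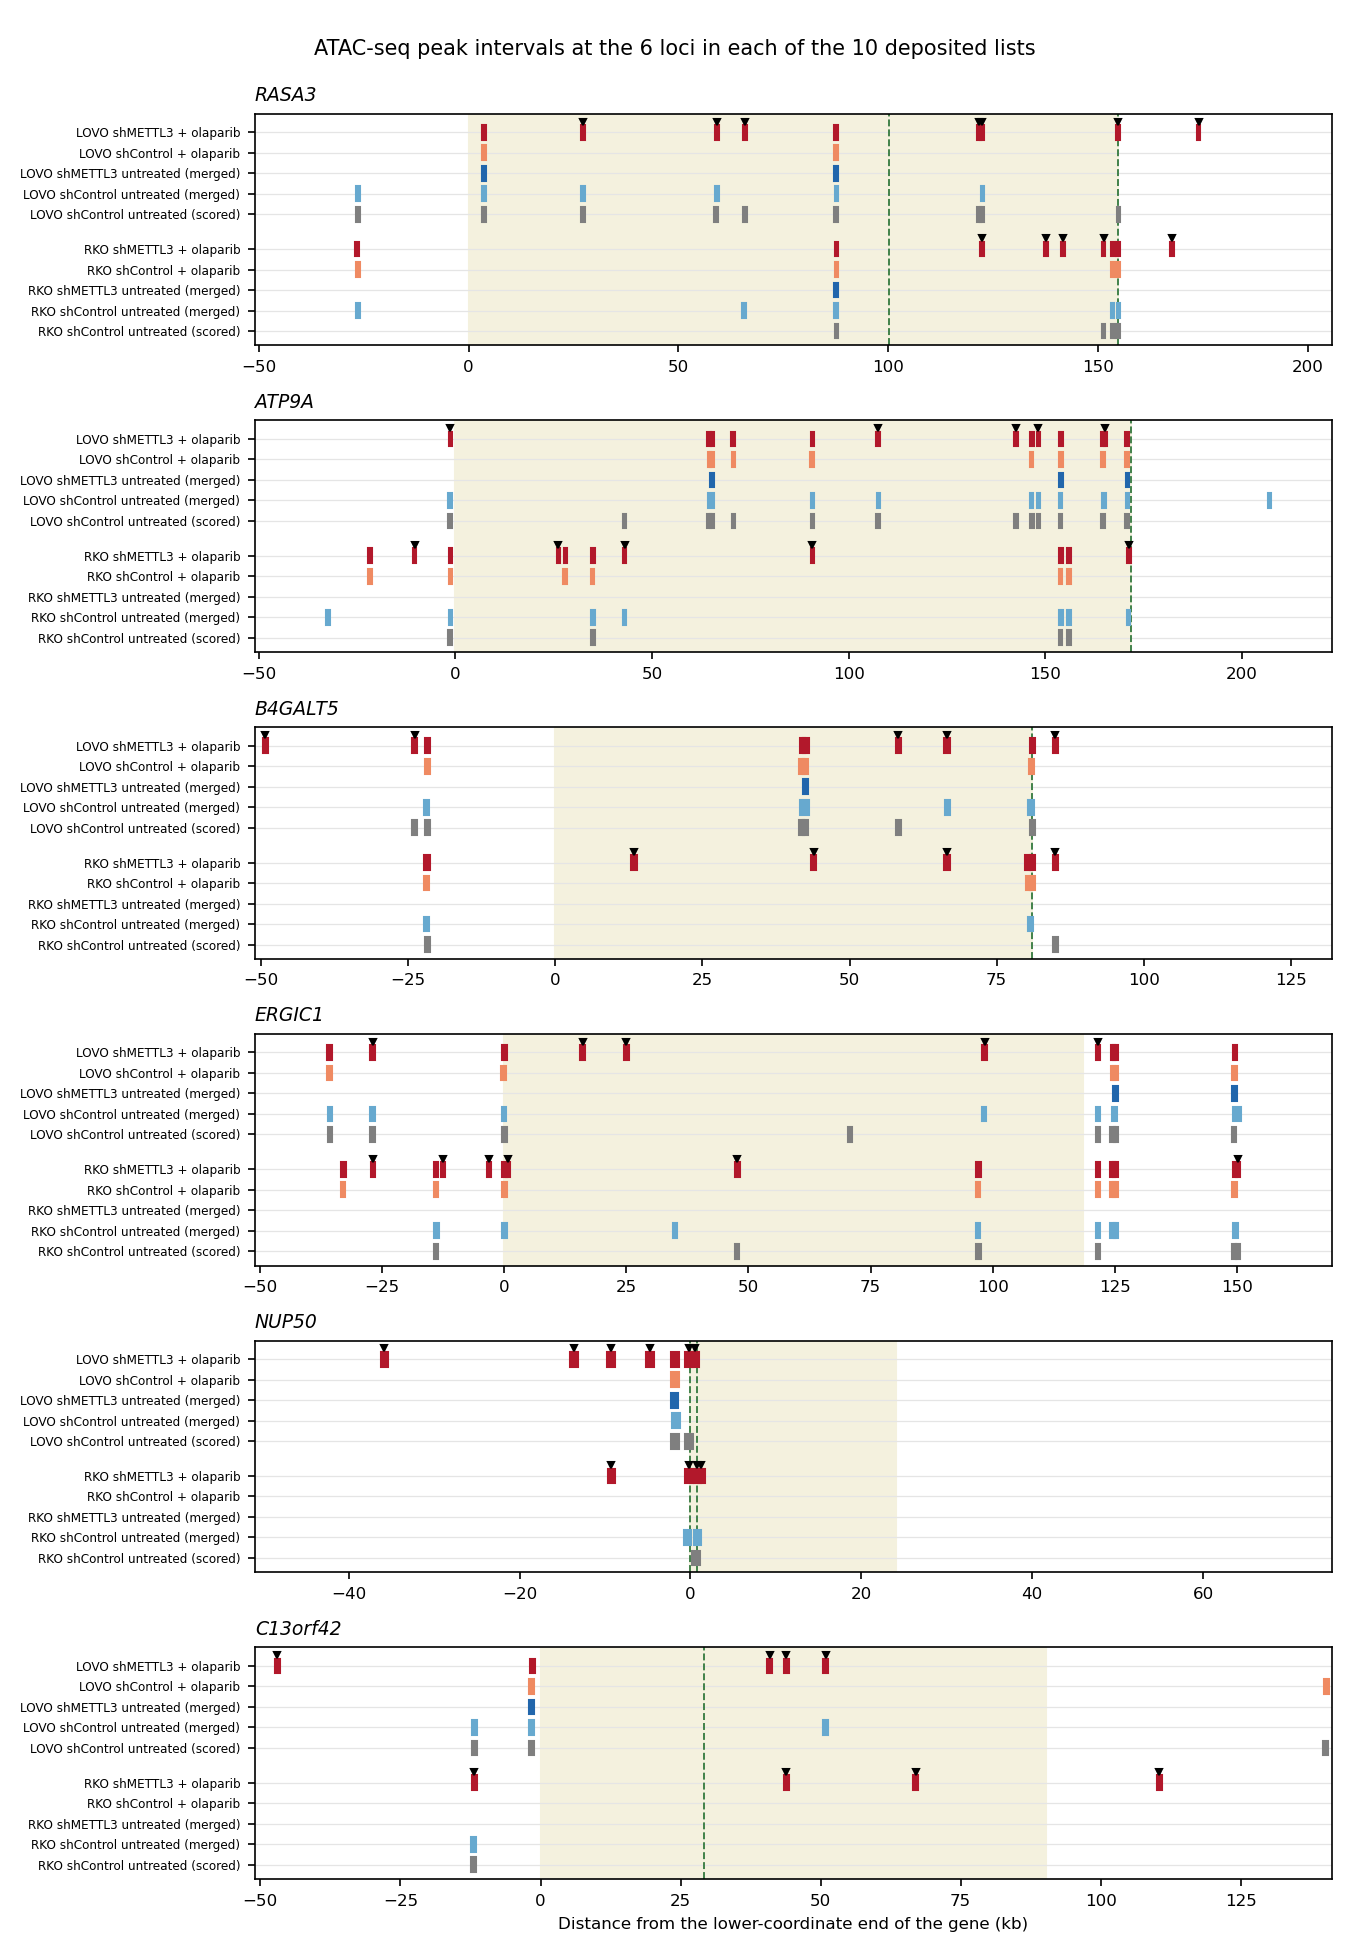
Peak intervals of the 10 lists (rows) along each locus, by distance in kb from the lower-coordinate end of the gene; the shaded band is the gene body, dashed lines are RefSeq starts with a promoter entry, and triangles mark intervals of shMETTL3 with olaparib that are absent from shControl with olaparib. Intervals narrower than 0.9 kb are drawn 0.9 kb wide, so neighbouring ones can appear to touch. The shMETTL3 with olaparib rows are the most densely filled at every locus in RKO, and the untreated RKO shMETTL3 row holds 1 interval, at RASA3.

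NUP50 (chr22:45163925-45188017, plus strand) was the locus with promoters covered in shMETTL3 with olaparib and not in shControl with olaparib in both lines. In LOVO its window held 7 intervals in shMETTL3 with olaparib, against 1 in shControl with olaparib, 1 in untreated shMETTL3, 1 in merged and 2 in scored untreated shControl. RKO had 4 in shMETTL3 with olaparib and 0 in shControl with olaparib, 0 in untreated shMETTL3, 2 in merged and 1 in scored untreated shControl. The upstream start was flanked in shMETTL3 with olaparib by chr22:45163604-45163843 in LOVO (240 bp, score 4.48) and by chr22:45163650-45163845 in RKO (196 bp, score 6.62). These covered 169 and 171 of the 300 bases of the upstream promoter, against 0 in shControl with olaparib and 0 in untreated shMETTL3 of both lines. The same stretch was open in untreated shControl in 1 of the 2 lists of each line, the scored one in LOVO (171 bases) and the merged one in RKO (231 bases). In both lines the interval of shMETTL3 with olaparib ends short of the upstream NUP50 start. It holds the start of NUP50-DT, the divergent long noncoding RNA of NUP50.

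A similar order appeared at the inner NUP50 promoter, whose start lies within the RKO interval of shMETTL3 with olaparib but not within the LOVO one. In LOVO chr22:45164383-45164630 (248 bp, score 4.66) and in RKO chr22:45164557-45164901 (345 bp, score 7.99) covered 210 and 164 of the 300 bases, against 0 in shControl with olaparib in both lines. In untreated cells the inner promoter was covered in RKO shControl, by 99 bases in the merged and 300 in the scored list, and in no untreated LOVO list. All these scores were low or middling within their lists: the LOVO intervals ranked at the 5.55 and 7.73 percentiles, and the RKO intervals at the 31.4 and 46.6 percentiles. A gained interval within 1 kb of a gene end occurred at 2 of 6 loci in LOVO (RASA3 and NUP50) and 3 of 6 in RKO (ATP9A, ERGIC1 and NUP50), beside 13% and 11.5% of protein-coding genes. In both lines it occurred at 1 of 6, NUP50, beside 3.27% of genes. A gene end that was open in shMETTL3 with olaparib and closed in shControl with olaparib in both lines occurred again at NUP50 alone, and at 0.813% of genes. The contrast behind these gene-end shares chose the loci, so nothing is read from them.

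Away from its starts, NUP50 shared 1 further gained interval between the lines, within the body of NUP50-DT. It spanned chr22:45154541-45154733 in LOVO (193 bp, score 8.68) and chr22:45154543-45154790 in RKO (248 bp, score 8.41). No other list held it, and both ranked near the middle of their list, at the 46.3 and 51.2 percentiles. The other LOVO gains lay upstream, at chr22:45128019-45128190, chr22:45150218-45150363 and chr22:45159108-45159267, each in this 1 list alone. The interval at chr22:45161926-45162326 (401 bp, score 8.29) was in all 5 LOVO lists and in no RKO list. The fourth RKO gain, chr22:45165087-45165318 (232 bp), carries the same peak name and score as the interval at the inner start. Nothing was listed in the gene body beyond the 5′ end or on its downstream side, where KIAA0930 and MIR1249 lie.

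RASA3 (chr13:113977783-114132623, minus strand) held 9 intervals in LOVO shMETTL3 with olaparib and 2 in shControl with olaparib, 2 in untreated shMETTL3, 6 in merged and 9 in scored untreated shControl. In RKO it held 9 in shMETTL3 with olaparib and 4 in shControl with olaparib, 1 in untreated shMETTL3, 5 in merged and 4 in scored untreated shControl. Knockdown cells with olaparib thus had as many intervals as the scored untreated control in LOVO and more in RKO. An internal interval near chr13:114065169-114065717 was the only region at the 6 loci present in all 10 lists. Its score was 18.5 in shMETTL3 with olaparib and 13.3 in shControl with olaparib in LOVO, at the 93.6 and 87.8 percentiles of lists whose scores cannot be compared directly.

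The RASA3 start was gained in LOVO and not in RKO. In LOVO chr13:114132529-114132714 (186 bp, score 6.18) covered 141 of the 300 promoter bases in shMETTL3 with olaparib, against 0 in shControl with olaparib, 0 in untreated shMETTL3, 0 in merged and 300 in scored untreated shControl. RKO covered 156 bases in shMETTL3 with olaparib, 174 in shControl with olaparib, 0 in untreated shMETTL3, 274 in merged and 130 in scored untreated shControl. The start was thus open in every RKO list but that of untreated shMETTL3. Of 7 gained LOVO intervals 6 were present in an untreated shControl list, among them chr13:114004946-114005162 (217 bp, score 12, percentile 70.6). Of 5 gained RKO intervals only chr13:114129078-114129237 was present in an untreated control. The gain that both lines shared lay inside the gene, at chr13:114100082-114100316 in LOVO (score 9.53) and chr13:114100143-114100291 in RKO (score 4.14). RKO also gained chr13:114115446-114115591, which holds the start of the noncoding RNA gene LOC124903221.

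ATP9A (chr20:51596514-51768390, minus strand) has the longest of the 6 windows, 272 kb. LOVO listed 13 intervals in shMETTL3 with olaparib and 8 in shControl with olaparib, 3 in untreated shMETTL3, 10 in merged and 13 in scored untreated shControl. RKO listed 11 in shMETTL3 with olaparib and 6 in shControl with olaparib, 0 in untreated shMETTL3, 7 in merged and 4 in scored untreated shControl. All 5 gained LOVO intervals were present in an untreated shControl list, and none was gained in RKO as well. The highest ranked gain at any of the loci was among them, chr20:51595108-51595416 (309 bp, score 17.2, percentile 90.8), whose midpoint lies 1.25 kb past the lower, downstream end of the gene. In RKO that interval was present with both hairpins under olaparib and in both untreated shControl lists, so that only its absence from LOVO shControl with olaparib made it a gain.

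The ATP9A start showed no gain in LOVO. There chr20:51767116-51767518 (403 bp, score 15.1) in shMETTL3 with olaparib overlapped an interval in each of the other 4 LOVO lists. RKO gained chr20:51767718-51767925 (208 bp, score 4.57, percentile 9.44), its midpoint 569 bp from the start, where its merged untreated shControl list held an interval of 797 bp. Its strongest gain by rank was chr20:51586079-51586283 (205 bp, score 9.49), beyond the downstream end and in no other list. No gained interval lay on the upstream side, towards SALL4, the gene of a zinc finger transcription factor, whereas NFATC2 lies on the downstream side.

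B4GALT5 (chr20:49632945-49713878, minus strand) held 9 intervals in LOVO shMETTL3 with olaparib and 4 in shControl with olaparib, 1 in untreated shMETTL3, 4 in merged and 6 in scored untreated shControl. In RKO it held 7 in shMETTL3 with olaparib and 3 in shControl with olaparib, 0 in untreated shMETTL3, 2 in merged and 2 in scored untreated shControl. Gains that both lines shared were found at 2 places. Inside the gene chr20:49699421-49699555 (135 bp) had the same ends in both lines, with scores of 8.09 in LOVO and 8.72 in RKO. Upstream of the start chr20:49717780-49717957 in LOVO (178 bp, score 9.69) and chr20:49717792-49717962 in RKO (171 bp, score 5.39) had their midpoints 3990 and 3999 bp from it. The internal gain was also in the merged untreated LOVO shControl list, and the upstream gain in the scored untreated RKO shControl list.

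The B4GALT5 start was no gain in either line. Its promoter was covered over 255 bases in LOVO shMETTL3 with olaparib and 71 in shControl with olaparib, and over 238 bases in RKO shMETTL3 with olaparib and 221 in shControl with olaparib. Untreated shMETTL3 covered 0 bases in both lines. Untreated shControl covered 300 bases in the merged lists of both lines, and 238 bases in LOVO and 0 in RKO in the scored lists. The highest ranked RKO gain at this locus, chr20:49646268-49646405 (138 bp, score 10.8, percentile 71.8), was in no other list.

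ERGIC1 (chr5:172834251-172952683) listed 10 intervals in LOVO shMETTL3 with olaparib and 5 in shControl with olaparib, 2 in untreated shMETTL3, 7 in merged and 8 in scored untreated shControl. RKO listed 14 in shMETTL3 with olaparib, the most at any locus in any list, and 8 in shControl with olaparib, 0 in untreated shMETTL3, 8 in merged and 6 in scored untreated shControl. Its lower end was open under olaparib with both hairpins in both lines. RKO gained chr5:172835031-172835211 (181 bp, score 3.81, percentile 3.51) beside it. The shared gain lay 26.9 kb below that end, at chr5:172807259-172807482 in LOVO (224 bp, score 12, percentile 70.6) and chr5:172807297-172807472 in RKO (176 bp, score 6.76, percentile 33.7). In LOVO it was also in both untreated shControl lists, whereas no other RKO list held it. Beyond the upper end, the window reaches RPL26L1 and ATP6V0E1, the gene of a subunit of the vacuolar proton pump. The interval over the lower end of ATP6V0E1 near chr5:172983500-172984045 was no gain and belongs to a region found in 9 of 10 lists, all but untreated RKO shMETTL3. Within the same region RKO gained chr5:172984407-172984544 (138 bp, score 5.54, percentile 19.6), which was also in both untreated RKO shControl lists.

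C13orf42 (chr13:51082119-51172388, minus strand) held the fewest intervals in shMETTL3 with olaparib in LOVO. LOVO listed 5 in shMETTL3 with olaparib and 2 in shControl with olaparib, 1 in untreated shMETTL3, 3 in merged and 3 in scored untreated shControl. RKO listed 4 in shMETTL3 with olaparib and 0 in shControl with olaparib, 0 in untreated shMETTL3, 1 in merged and 1 in scored untreated shControl. Within the gene, the lines shared a gain at chr13:51125886-51126003 in LOVO (118 bp, score 7.78, percentile 37.2) and chr13:51125872-51126010 in RKO (139 bp, score 10.9, percentile 73). With the interval inside NUP50-DT, this was 1 of 2 regions found in the shMETTL3 with olaparib lists of both lines and in none of the other 8. The RKO interval had the highest percentile of all gains in that line. The 1 loss of the 6 loci lay at chr13:51222255-51222410 (156 bp, score 4.88) in LOVO shControl with olaparib, at the edge of the window.

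**Figure D2:**
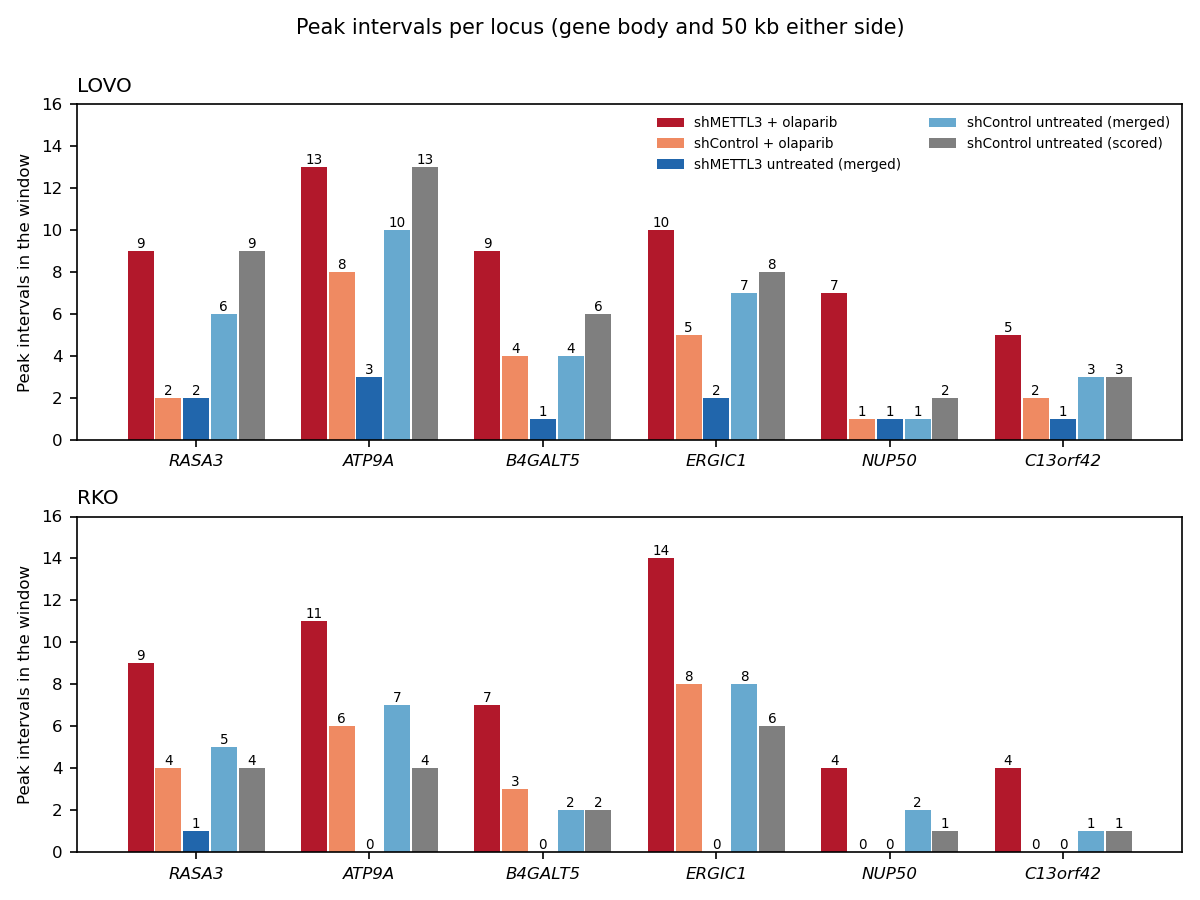
Number of peak intervals in the window of each locus (gene body and 50 kb either side) in each list, LOVO above and RKO below. There is 1 list per bar and hence no error bar; in LOVO the scored untreated shControl bars of RASA3 (9) and ATP9A (13) are as high as those of shMETTL3 with olaparib, whereas in RKO the shMETTL3 with olaparib bar is the highest at every locus.

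Part of the gained intervals were already listed in untreated control cells, a larger share in LOVO than in RKO, a difference between lines that was not tested. Of the 32 LOVO gains 19 overlapped an interval of an untreated shControl list (59.4%, 40.6 to 76.3%), against 50.2% of all gained intervals of the line. Of the 28 RKO gains 9 did (32.1%, 15.9 to 52.4%), against 37% of all. These counts take either form of list. The scored list held 15 of the gains in LOVO and 6 in RKO. The merged list, of another form and with wider intervals, held 12 and 6. The loci differed within LOVO: RASA3 had 6 of 7 and ATP9A 5 of 5 such gains, but NUP50 had 1 of 6 and C13orf42 1 of 4. In RKO the counts ran from 1 of 5 at RASA3 to 2 of 4 at NUP50. None of the 32 and none of the 28 was present in untreated shMETTL3 cells of the line, whose lists are of the merged form and the shortest. Few gains were present there anywhere, 976 of 20825 in LOVO and 212 of 11723 in RKO. Between lines, 8 gained intervals overlapped, 25% of the LOVO and 28.6% of the RKO gains, against 8.58% and 15.2% over the whole lists. The choice of loci with gains in both lines used these same lists, so nothing is read from that difference. They stood at NUP50 (3), B4GALT5 (2), RASA3, ERGIC1 and C13orf42 (1 each), with none at ATP9A.

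**Figure D3:**
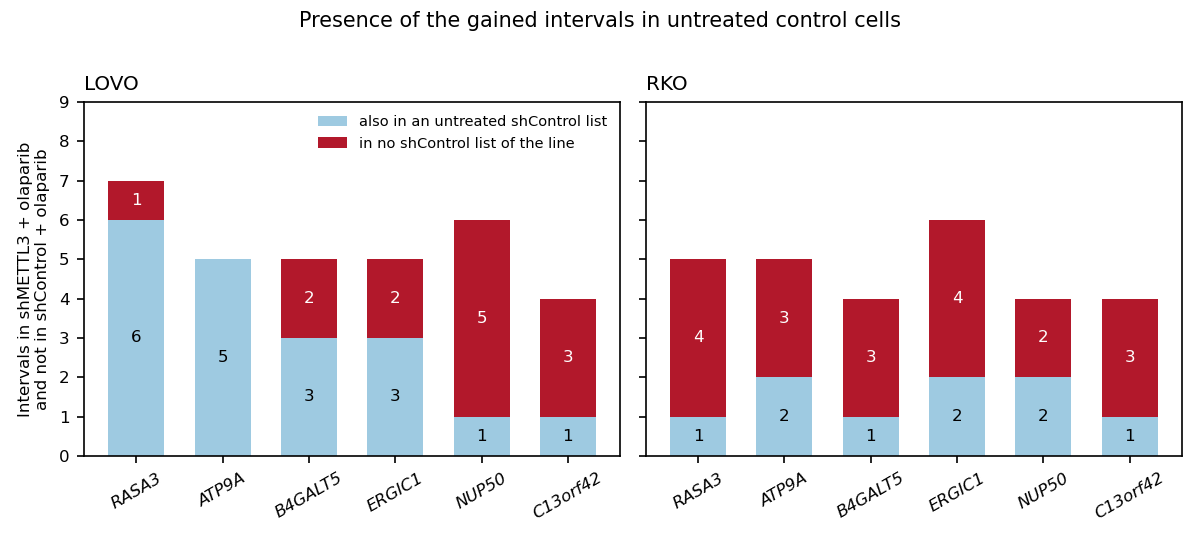
Gained intervals (in shMETTL3 with olaparib and not in shControl with olaparib) per locus, split by whether an untreated shControl list of the line held an overlapping interval (lower, light part) or none did (upper, dark part). In LOVO the light part makes up 6 of 7 at RASA3 and 5 of 5 at ATP9A; in RKO it is 1 or 2 intervals at every locus.

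Set against untreated shControl of the same form, shMETTL3 with olaparib had 53 intervals against 41 in LOVO and 49 against 18 in RKO. Of these 18 (34%, 21.5 to 48.3%) were absent from the untreated list in LOVO and 31 (63.3%, 48.3 to 76.6%) in RKO, against 28.6% and 44.5% over the whole lists. More intervals than in untreated shControl were counted at 4 of 6 loci in LOVO, where 49% of protein-coding genes had more, and at 6 of 6 in RKO, where 66.9% had. RASA3 and ATP9A were the LOVO exceptions, with equal counts. At all 6 loci at least 1 interval absent from untreated shControl stood in both lines, as at 49.5% of genes. This comparison uses the lists of shMETTL3 with olaparib that chose the loci.

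Without the drug the METTL3 hairpin went with fewer intervals. Neither list compared here had been used to choose the loci, and the shMETTL3 lists are shorter as a whole, 16417 against 33474 intervals in LOVO and 6916 against 27978 in RKO. Untreated shMETTL3 had 10 intervals at the 6 loci, against 31 in untreated shControl in LOVO, and 1 against 25 in RKO. All of the shMETTL3 intervals lay on shControl intervals. In LOVO 21 of 31 shControl intervals (67.7%, 48.6 to 83.3%) had no shMETTL3 partner, against 52.5% of the whole list, and in RKO 24 of 25 (96%, 79.6 to 99.9%), against 76.9%. With the shControl list reduced to its widest intervals, as many as the shMETTL3 list holds, 7 of 16 were missing in LOVO (43.8%, against 32.2% of the whole reduced list) and 3 of 4 in RKO (75%, against 46.8%). The reduction changed interval width along with number, so the part of list length was not tested. At least 1 interval was missing at 5 of 6 loci in LOVO and 6 of 6 in RKO, beside 82% and 93.1% of genes with a control interval, and at 5 of 6 in both lines, beside 77.9%. NUP50 in LOVO was the exception: its 1 control interval remained. In RKO every control interval was missing at 5 of 6 loci, all but RASA3, beside 35.6% of genes. At ATP9A 7 of 10 were missing in LOVO and 7 of 7 in RKO, and at ERGIC1 5 of 7 and 8 of 8.

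With the control hairpin, olaparib went with fewer intervals at the loci in LOVO. Against the scored untreated lists, which are of the same form, the lines did not share a direction. In LOVO shControl with olaparib had 22 intervals, against 41 in untreated shControl. No interval was new, and 19 of 41 (46.3%, 30.7 to 62.6%) were missing, against 28.2% of the whole list. Fewer intervals were counted at 6 of 6 loci, as at 60.6% of genes, and RASA3 alone lacked 7 of its 9. RKO had 21 with olaparib and 18 untreated, of which 9 (42.9%, 21.8 to 66%) were new, against 29.2% of the whole list, and 6 untreated intervals (33.3%, 13.3 to 59%) were missing, against 11.5%. With the merged untreated list as reference 3 were new in RKO and 2 in LOVO. The merged lists, of another form, held 31 intervals in LOVO and 25 in RKO, both more than with olaparib, so the direction in RKO depends on the control list. Against the scored list, more intervals were counted in RKO at 3 of 6 loci, ATP9A, B4GALT5 and ERGIC1 (41.2% of genes). Fewer were counted there at 2 of 6, NUP50 and C13orf42 (14.8% of genes). The shControl with olaparib lists helped to choose the loci, through low counts in them, so that nothing is read from an excess of missing intervals over the whole lists.

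The untreated shControl lists set the size of a difference between lists of the same group. At the loci 11 of 41 scored intervals (26.8%) were absent from the merged list in LOVO and 3 of 18 (16.7%) in RKO, against 23.9% and 11.5% over the whole lists. In the other direction 4 of 31 merged intervals (12.9%) were absent from the scored list in LOVO and 11 of 25 (44%) in RKO, against 12.2% and 36.9% over the whole lists. The gained shares of 60.4% and 57.1% cannot be weighed against these, since gains chose the loci and the control lists differ in form. With the longer shMETTL3 with olaparib lists reduced by score to the number of intervals of shControl with olaparib, 15 of 29 (51.7%) were gained in LOVO and 16 of 30 (53.3%) in RKO, against 24.3% and 24.7% over the whole reduced lists. The same contrast chose the loci, so nothing is read from that excess. After the reduction 8 of 22 shControl with olaparib intervals were lost in LOVO and 7 of 21 in RKO, against 1 and 0 before it. The share lost over the whole lists after the reduction is not given, so nothing is read from these losses.

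Gained intervals were narrower than those shared between the hairpins, as they were over the whole lists. Their median width was 189 bp, against 379 bp for shared intervals, in LOVO, and 166 bp against 321 bp in RKO. Over the whole lists the medians were 177 and 370 bp in LOVO and 178 and 356 bp in RKO. Median score percentiles were 35.9 for gained and 45.6 for shared intervals in LOVO, and 33.3 and 44.1 in RKO. The gap in rank was smaller at the loci than over the whole lists, where the medians were 28.2 and 66 in LOVO and 31 and 59.8 in RKO. The split into gained and shared is the contrast that chose the loci, so nothing is read from that. Gene bodies held 19 of 32 gained and 14 of 21 shared intervals in LOVO, and 17 of 28 gained and 10 of 21 shared intervals in RKO. Gene bodies make up 51.6% of the length of the 6 windows. A RefSeq start lay inside 2 of 32 gained and 3 of 21 shared intervals in LOVO, and inside 3 of 28 gained and 3 of 21 shared intervals in RKO.

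**Figure D4:**
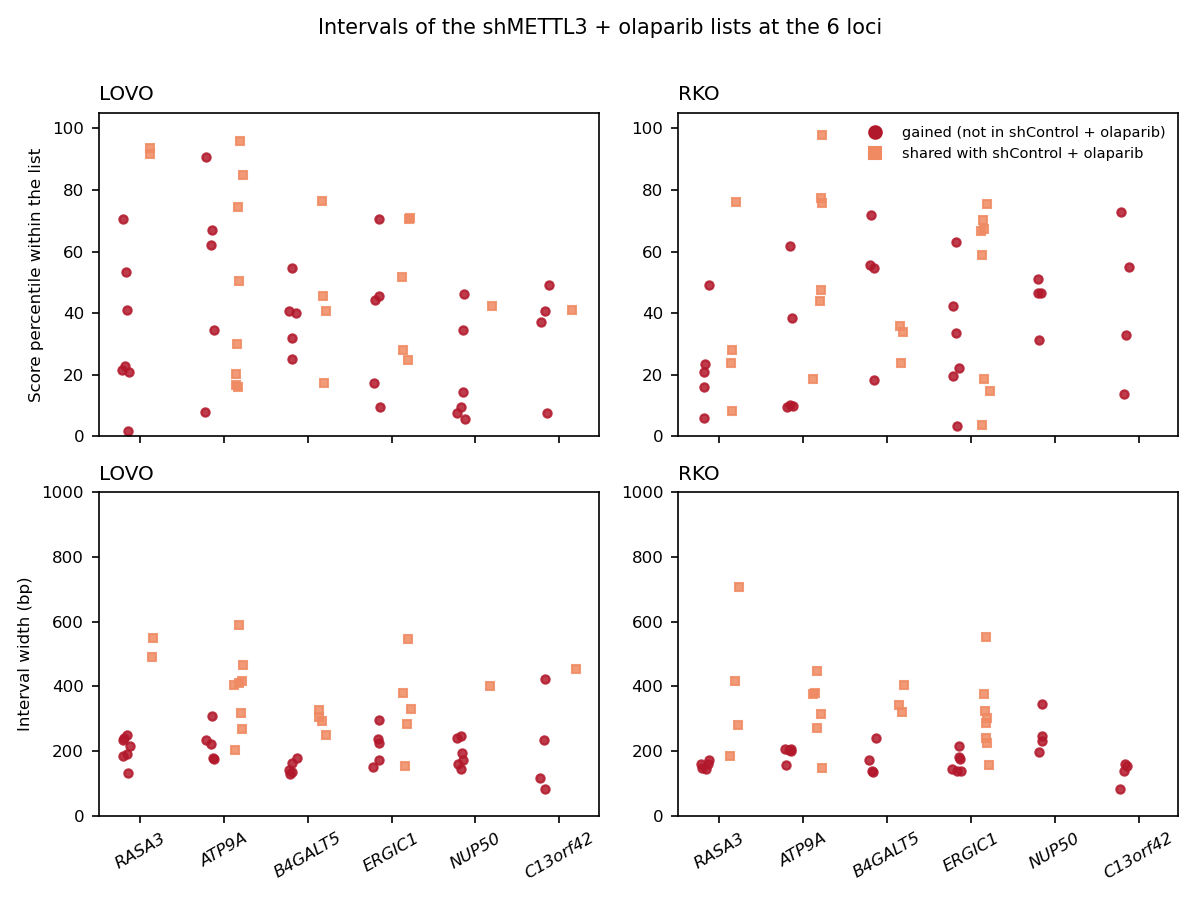
Score percentile within the list (upper panels) and width in bp (lower panels) of every interval of shMETTL3 with olaparib at the 6 loci, gained (circles, left) or shared with shControl with olaparib (squares, right); points are spread sideways for legibility. The gained intervals are 82 to 422 bp wide in LOVO and 82 to 345 bp in RKO, and the LOVO gain at ATP9A at percentile 90.8 stands highest.

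Among all genes the 6 loci stood high, as their choice requires, but not at the top. Ranked by the smaller gained count of the 2 lines, CAST, the gene of the calpain inhibitor calpastatin, came first, with 11 in LOVO and 12 in RKO in a window of 913 kb. It was followed by the homeobox gene HOXB3 (8 and 8), RAD51B, which acts in homologous recombination (17 and 8), the coiled-coil protein gene TACC2 (8 and 8) and ASAP1, a GTPase-activating protein gene for ARF proteins (7 and 9). ATP9A, ERGIC1 and RASA3 had 5 by this measure, with 31 genes above and 84 genes at the same value, themselves included. B4GALT5, C13orf42 and NUP50 had 4, with 115 genes above and 264 at that value. Window length matters for such counts. The windows measured 124 to 272 kb, and the median over all genes was 124 kb. Per 100 kb NUP50 had the highest density of the 6, 4.84 gained intervals in LOVO and 3.22 in RKO, and ATP9A the lowest, 1.84 in each line. The RKO value of NUP50 counts 1 named peak as 2 intervals. The median over the 6 loci was 2.52 in LOVO and 2.16 in RKO, against 0.907 and 0.668 over all genes.

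**Figure D5:**
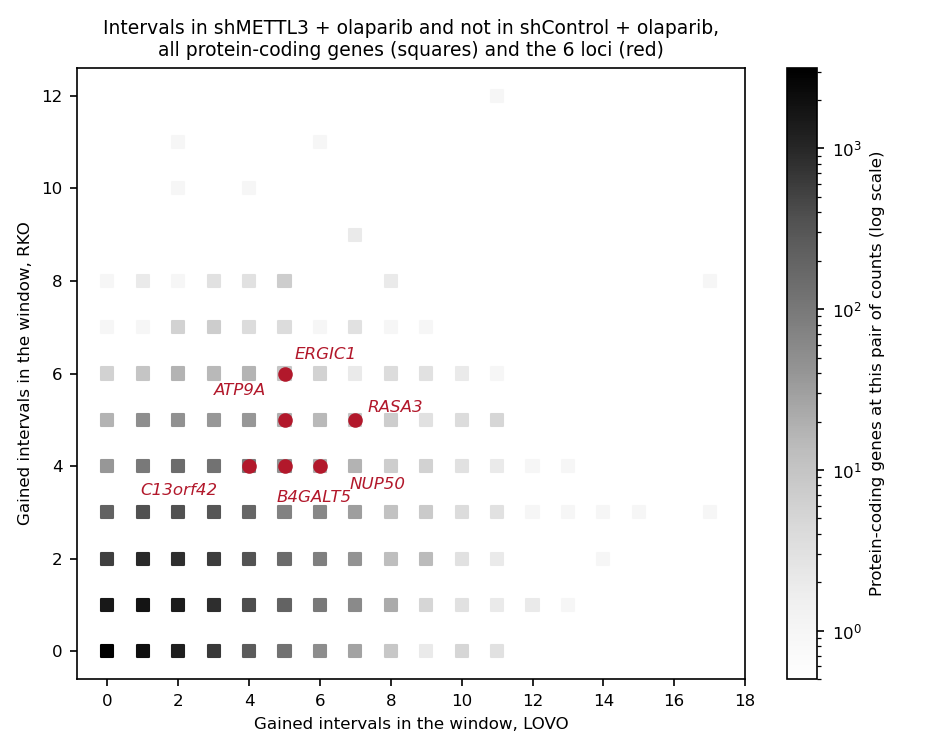
Gained intervals per window in LOVO (horizontal) and RKO (vertical) for all 20037 protein-coding genes; the grey level of a square gives the number of genes at that pair of counts on a log scale, and red points are the 6 loci. The loci lie between 4 and 7 in LOVO and between 4 and 6 in RKO, and CAST, at 11 and 12, lies farthest up.

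Relatives of the 6 genes were counted in the same way. Lists of RAS GTPase-activating proteins, P4-ATPases with their CDC50 subunits, galactosyltransferases with glycosphingolipid synthesis, early secretory pathway genes, and nucleoporins with importins, RAN and RCC1 held 58 other genes. Of these 35 had a gained interval in both lines, a call met by 50.6% of all genes. By list the count was 7 of 10 RAS GTPase-activating proteins, 7 of 15 P4-ATPase and CDC50 genes and 8 of 11 galactosyltransferase and glycosphingolipid genes. It was 6 of 11 for secretory pathway genes and 7 of 11 for the list of nucleoporins and importins. At least 4 in both lines, a call met by 1.89% of all genes, were found at 3 of the 58: ATP8A2, a flippase gene, and NUP153 and RANBP2, both nucleoporin genes. A gained interval at a gene end was found at 7 of the 58 in LOVO and 3 in RKO, and at 0 in both lines, beside 13%, 11.5% and 3.27% of all genes.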

How the data were processed

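Per the submitters' processing notes, the authors used DiffBind 3.0.15, MACS2 2.2.7.1, Bowtie2 2.4.2 and Trim Galore 0.6.6 with the build hg38, in roles and an order that the notes leave out. The sources used here do not say how samples of a group were combined or reads shifted and filtered. The authors deposited 10 lists of interval positions. In 6 of them each interval also carries a score, from 1.75 to 51.1, as deposited with a peak name of replicate 1, and the MACS2 column behind it is not stated. A few of these peak names stand on several intervals. The 4 merged lists hold positions only. Depth is unknown, and 95% exact intervals cover counting error only.

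From these lists, overlaps of at least 1 bp were computed with Python 3.11.15 and numpy 2.4.6. Scores were ranked within their own list. Gene ends, windows of 50 kb and gene-end windows of 1 kb came from RefSeq (GRCh38.p14), and promoters were matched by symbol. Exact binomial intervals came from scipy 1.17.1. The code was tested on simulated lists with intervals added and dropped.

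The members and the gene and motif lists were chosen with earlier results of these data known. Named are the 6 members, neighbours within 50 kb, relatives with at least 4 gained intervals in both lines (named after their values were seen) and the 5 genes with most gained intervals in both lines. No relative met the rule set for naming, a gained gene end in both lines. Alternatives changed the overlap, window, score minimum, list length and control list. Peak sequences were not used here.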

Additional observations from a re-analysis of the deposited data

Results flagged for a closer look

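Against scored untreated shControl, olaparib with the control hairpin went with opposite net changes at 3 loci in the 2 lines. The difference between the lines was not tested, since each group has 1 list per form. ATP9A had 8 intervals in shControl with olaparib and 13 in scored untreated shControl in LOVO, a net change of -5, and 6 against 4 in RKO, a net change of 2. B4GALT5 had 4 against 6 in LOVO, a net change of -2, and 3 against 2 in RKO, a net change of 1. ERGIC1 had 5 against 8 in LOVO, a net change of -3, and 8 against 6 in RKO, a net change of 2. List size moved with these values: shControl with olaparib had 32192 intervals against 41431 untreated in LOVO, and 25855 against 21210 in RKO. Its part in the result was not tested. The opposite signs also depend on the control list. Against the merged untreated list, of another form, RKO had 6 against 7 at ATP9A, 3 against 2 at B4GALT5 and 8 against 8 at ERGIC1. LOVO had 8 against 10, 4 against 4 and 5 against 7 at the same loci.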

How the results depend on the processing

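At least 1 gained interval stood at 6 of 6 loci in both lines under 9 settings; with absence from all 3 shControl lists of the line required, the count was 5, since ATP9A then had 0 in LOVO. The 32 gained LOVO intervals became 19 in the gene body only, 13 with scores at or above the median, 15 in lists of equal number, 18 with the scored and 21 with the merged untreated shControl as reference, and 13 when absent from all 3 shControl lists or, as chosen after seeing the data, from the other 4 lists. The 28 in RKO became 17 in the gene body only, 14 with scores at or above the median and 16 in lists of equal number; the other settings gave 19 to 36. Intervals missing in untreated shMETTL3 (21 in LOVO, 24 in RKO) were 13 and 13 in the gene body only, and 7 and 3 when the shControl list was reduced to its widest intervals. New intervals in shControl with olaparib, 0 in LOVO, became 3 with 50% of the interval covered and 2 with the merged reference; the 9 in RKO became 4 in the gene body only and 3 with the merged reference. Of 132 values for single loci 86 stayed within 1.5 times the reported count and 46 did not.

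No paired analysis was possible because each list stands for a whole group, and for the same reason leaving out each replicate in turn was not run. Depth is unknown, and the lists of shMETTL3 with olaparib are the longest of each line. The part of list length in the gains was not tested. Scores are comparable within a list only. The scored lists carry peak names of replicate 1, so the spread between samples of a group is not in these data.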

Other observations

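The intervals at the 6 loci formed 80 separate regions over the 10 lists, of which 31 were seen in LOVO lists only, 25 in RKO lists only and 24 in both. Regions found in the shMETTL3 with olaparib list alone numbered 9 in LOVO and 13 in RKO. RASA3 and C13orf42 lie on chromosome 13, where 42.5% of all LOVO and 39% of all RKO intervals of shMETTL3 with olaparib were gained, shares that rank 4 and 3 among 23 chromosomes. Chromosomes 20, 22 and 5, with the other 4 loci, had 39.4, 38.2 and 41% in LOVO and 35.9, 34.9 and 34.4% in RKO.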
